A study of Homo sapiens with 12 samples.

Results

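Immediate early genes are the first genes that cells transcribe after a growth signal, and 10 of them were followed here. They are FOS, FOSB, FOSL1, JUN, JUNB, JUND, EGR1, IER2, DUSP1 and KLF6. They were taken as a fixed list that had been chosen with earlier results of these data known. Matched by gene symbol to 1 gene ID each, they make up 10 of the 58735 genes in the count table.

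The series compared ribosome footprinting (Ribo-seq) and RNA sequencing (RNA-seq) of 293T cells, an established human embryonic kidney line that carries the SV40 large T antigen. All cultures carried a doxycycline-inducible 4EBP1-4A construct, in which alanines replace phosphorylation sites of 4EBP1, an inhibitor of the cap-binding factor eIF4E. The DMSO group had 3 cultures and the DOX group 3 cultures given doxycycline at 2 mg/mL, each culture with 1 library per assay, which gives 12 libraries. The labels and the methods give 12 h of doxycycline, while the text of the series gives 2 h and the results text of the study 1 day; which applies to these libraries is not settled here. Cultures of both groups grew in medium with 10% fetal bovine serum, and both groups received cycloheximide for 10 min before harvest. The transduced cells had been sorted by GFP as a pool, no 293T cells without the construct and no doxycycline-treated cells with an empty vector were analysed here, and nothing states that the replicates were grown on separate days. The p-values below therefore measure only the spread between these libraries.

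Immediate early genes respond to serum and growth factors through the ERK pathway and do not need new protein synthesis for their induction. Serum response factor and its ETS-family partners bind the CArG box in many of their promoters, while CREB and ATF proteins bind the cAMP response element (CRE). FOS and JUN proteins pair through leucine zippers to form the transcription factor AP-1. Many of the mRNAs carry AU-rich elements in the 3′ untranslated region and decay fast, and cycloheximide is known to prolong their life, which applies to both groups here.

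To show the promoter elements by which these genes are known, both strands of the promoters were searched from 500 bases before to 50 bases after the RefSeq start on GRCh38. The table of starts held 9 of the 10 genes, all but FOSL1. The CArG box was found in FOS, FOSB and EGR1, and in 2.55% of all 27305 promoters of that length. EGR1 held 5 such boxes, of which 2 are shown. The CRE, TGACGTCA, was found in FOSB, JUND and DUSP1, and in 2.32% of promoters. In the stretches below, each read 5′ to 3′ on the gene's strand, capitals mark the motif.
FOS, CArG box, chr14:75278504-75278533, plus strand, first base of the motif at -314: cacaggatgtCCATATTAGGacatctgcgt
FOSB, CArG box, chr19:45467712-45467741, plus strand, at -274: cggccgagctCCTTATATGGctaattgcgt
EGR1, CArG box, chr5:138465051-138465080, plus strand, at -418: cccggaaatgCCATATAAGGagcaggaagg
EGR1, CArG box, chr5:138465364-138465393, plus strand, at -105: gccggtcctgCCATATTAGGgcttcctgct
FOSB, CRE, chr19:45467660-45467689, plus strand, at -325: gggattccctcTGACGTCAttgctaggata
JUND, CRE, chr19:18281804-18281833, minus strand, at -200: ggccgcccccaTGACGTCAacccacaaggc
DUSP1, CRE, chr5:172771302-172771331, minus strand, at -125: ggcagggcgggTGACGTCAccgccccgtca

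The core of the CRE, TGACG, which every full CRE also holds, was found in 8 of the 9 promoters and in 34.3% of all promoters; KLF6 held none. The EGR site GCGNGGGCG was found in FOSB, JUND, EGR1 and KLF6, and in 11.7% of all promoters. The AP-1 site TGANTCA was in none of the 9 and in 13.2% of all promoters. In the shorter window from 250 bases before to 50 after the start, the CArG box remained in EGR1 alone among the 9, beside 1.29% of promoters, and the CRE in JUND and DUSP1, beside 1.98%. These matches describe the letters of the windows and say nothing of binding in these cells.

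The AU-rich nonamer TTATTTATT was found in the 3′ untranslated region of FOS, once, and of DUSP1, at 2 places, against 9.65% of 14223 tested protein-coding genes. Both mRNAs were also dense in the shorter ATTTA, at 6.2 per kilobase in FOS and 6.01 in DUSP1, where the median gene had 1.69. IER2 held no ATTTA. The 3 nonamers are shown because the DUSP1 and FOS mRNAs are the members that carry them.
FOS, chr14:75282060-75282089, plus strand: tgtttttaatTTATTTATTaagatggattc
DUSP1, chr5:172768642-172768671, minus strand: gggctggtccTTATTTATTtaacttcaccc
DUSP1, chr5:172768374-172768403, minus strand: agaatataccTTATTTATTtttgtgtaggt

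The genes were also compact. All 10 had at most 4 exons in the reference transcript, as did 21.4% of the tested protein-coding genes, and JUN, JUNB and JUND had 1 exon, as did 2.52%. Each of the 10 spanned less of the genome than the median gene (34833 bases), with a median span of 4163 bases. Their transcripts ranged in GC content from 45.7% in KLF6 to 69.9% in JUND, with a median of 56.9% against 48.7% for the tested protein-coding genes.

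Between 21687906 and 57824136 reads fell on genes in each RNA-seq library. The DOX library of replicate 3, called DOX 3 below, stood apart from the other 5. Its gene reads were 5.95% of all its reads, against 19.7% to 30.8% in the others, and the first principal component of the tested genes, with 84.4% of the variance, placed it at 69.8 while the other 5 lay between -28.7 and 3.71. The share of reads without a unique alignment was 54.9%, 62.3% and 58.6% in DMSO 1 to 3 and 65.4%, 69.9% and 88.4% in DOX 1 to 3, so it was higher in every DOX library than in any DMSO library. That share and the treatment cannot be told apart. Of 7 markers of 293T cells, VIM (769.9 to 923 CPM), NEFL (101 to 170), CDH2 (100.3 to 158), NEFM (67 to 175) and KRT18 (22.7 to 36.9) were well detected in all 6 libraries, while KRT8 (6.03 to 11.2 CPM) and PAX2 (1.28 to 4.18) were lower. NEFM and KRT18 passed the test as higher without DOX 3, and for 4 of the 7 all DOX libraries lay above all DMSO libraries. Over all tested genes, 3.59% were called higher and 4.06% lower without DOX 3. All DOX libraries lay above all DMSO libraries for 17.7% of tested genes and below them for 20.8%. Of 12 markers of other cell types, 9 did not reach the read minimum for testing, and the sum of the 12 was 16.1 to 17.4 CPM in DMSO, 16.5 and 18.9 CPM in DOX 1 and 2 and 27.1 CPM in DOX 3. That sum followed COL1A1 (8.37 to 24 CPM; log2 fold change 0.80), while LUM (0.276 to 1.58 CPM; -1.02) and KRT10 (2.21 to 5.73 CPM; -0.53), the other 2 tested, lay below DMSO in all DOX libraries, and LUM passed the test as lower without DOX 3. The part of these differences in the values below was not tested. As a check of the labels, EIF4EBP1, which encodes 4EBP1, was at 155.7, 157 and 169.4 CPM in DMSO and at 260, 281.3 and 267.3 CPM in DOX, higher in 3 of 3 DOX libraries (log2 fold change 0.75, SE 0.10). It did not pass the test over 6 libraries (adjusted p = 0.326, edgeR) and passed it without DOX 3 (adjusted p = 5.67e-06, edgeR). With other tests EIF4EBP1 passed over the same 6 libraries (adjusted p = 1.01e-08, DESeq2 Wald test, and 2.39e-05, limma voom with library weights).

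The 10 genes were first set in order of their level in cells that were growing in serum. Levels were compared as CPM, which are counts scaled to library size with the TMM factors of edgeR, per kilobase of exon in the 3 DMSO libraries. JUN led at 101 ± 12.9 CPM per kilobase (SD, n = 3), above 98.9% of the tested protein-coding genes. JUND followed at 30.6 ± 4.27 and DUSP1 at 22.9 ± 0.327 CPM per kilobase. JUNB, at 10.2 ± 1.01, and IER2, at 9.94 ± 0.57, overlapped in their ranges, and KLF6 lay just below at 7.55 ± 0.53. A wide step then led to FOS, at 1.52 ± 0.0964, which overlapped with EGR1, at 1.23 ± 0.28. FOSB was at 0.52 ± 0.023 and FOSL1 at 0.242 ± 0.0255 CPM per kilobase, the latter above 10.6% of tested protein-coding genes. The other neighbours in this order did not overlap in the DMSO libraries. When the level was divided by the length of the reference transcript, IER2 (14.5 CPM per kilobase) stood above JUNB (10.2), and KLF6 (10.1) came close to JUNB.

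**Figure D1:**
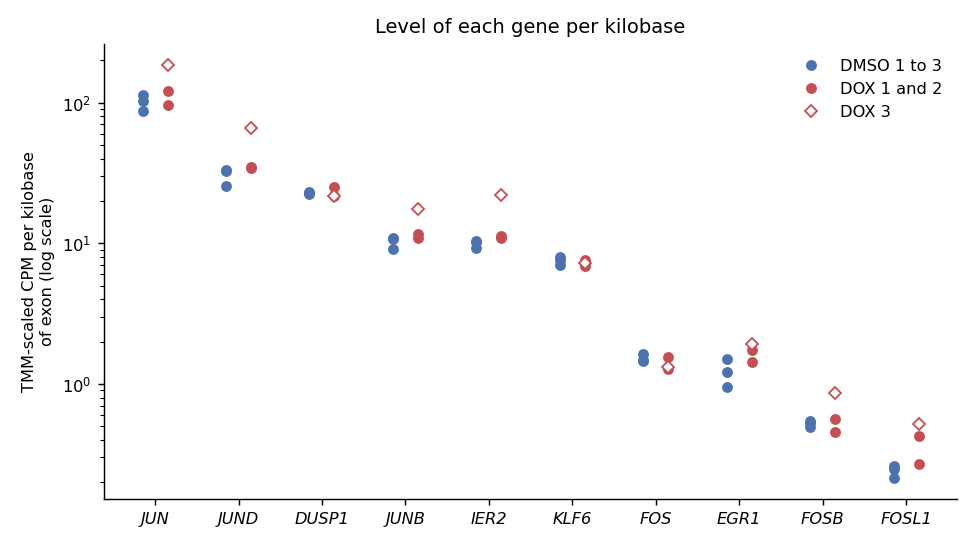
TMM-scaled CPM per kilobase of exon on a log axis for each of the 10 genes, 1 point per RNA-seq library, ordered by the DMSO mean. JUN stands highest at 101 CPM per kilobase and FOSL1 lowest at 0.242 in DMSO, and the open diamonds of DOX 3 lie above the other points for JUN, JUND, JUNB, IER2, FOSB, EGR1 and FOSL1.

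The next comparison asked whether the 10 mRNAs differed between DOX and DMSO. These are bulk libraries, in which a change in RNA per cell and a change in the share of cells that express a gene cannot be told apart. None passed the test over the 6 libraries (0 of 10; lowest adjusted p 0.326, edgeR), and neither did any of the 20552 genes tested (0% higher and 0% lower). At an unadjusted p under 0.05, edgeR gave 2 of the 10 (FOSL1 and EGR1) and 1969 genes higher and 848 lower over all genes, and DESeq2 gave 4 of the 10 and 2478 genes higher and 1323 lower over all genes, with 0 of the 10, and 1 gene higher and 2 lower in all, past the adjusted threshold. Without DOX 3, again none of the 10 passed (lowest adjusted p 0.129, edgeR, for EGR1), beside 3.59% of 20459 genes called higher and 4.06% called lower. Scaled to library totals, those 5 libraries gave 1442 genes higher and 339 lower instead of 735 and 831, and still 0 of the 10.

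The median log2 fold change of the 10 was 0.40 over 6 libraries, beside -0.04 for all tested genes, and 0.13 without DOX 3, beside -0.01. Over 6 libraries the log2 fold change rose with GC content across 14262 tested protein-coding genes (Pearson's r = 0.77, Spearman's rho = 0.80). Its median was 0.364 in the quintile highest in GC and 0.155 in the next, and these hold all of the 10 but KLF6. The part of GC content in the median of the 10 was not tested. Over 6 libraries 7 of the 10 values were above 0, beside 46.3% of all tested genes, and without DOX 3 again 7 of 10, beside 48.7%. With limma voom and library weights, 5 of the 10 were above 0, beside 49.9% of all tested genes, and the median of the 10 was 0.03. Scaling to library totals moved the median of all genes by 0.13 on the log2 scale over 6 libraries, and 9 of the 10 were then above 0. All 3 DOX libraries lay above all 3 DMSO libraries for FOSL1, JUND and IER2, which is 3 of 10 beside 17.7% of all tested genes, and for none did they all lie below, beside 20.8%. With DOX 1 and 2 alone the count above was again 3 of 10, beside 20.9% of genes, and the count below 0, beside 22.6%.

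**Figure D2:**
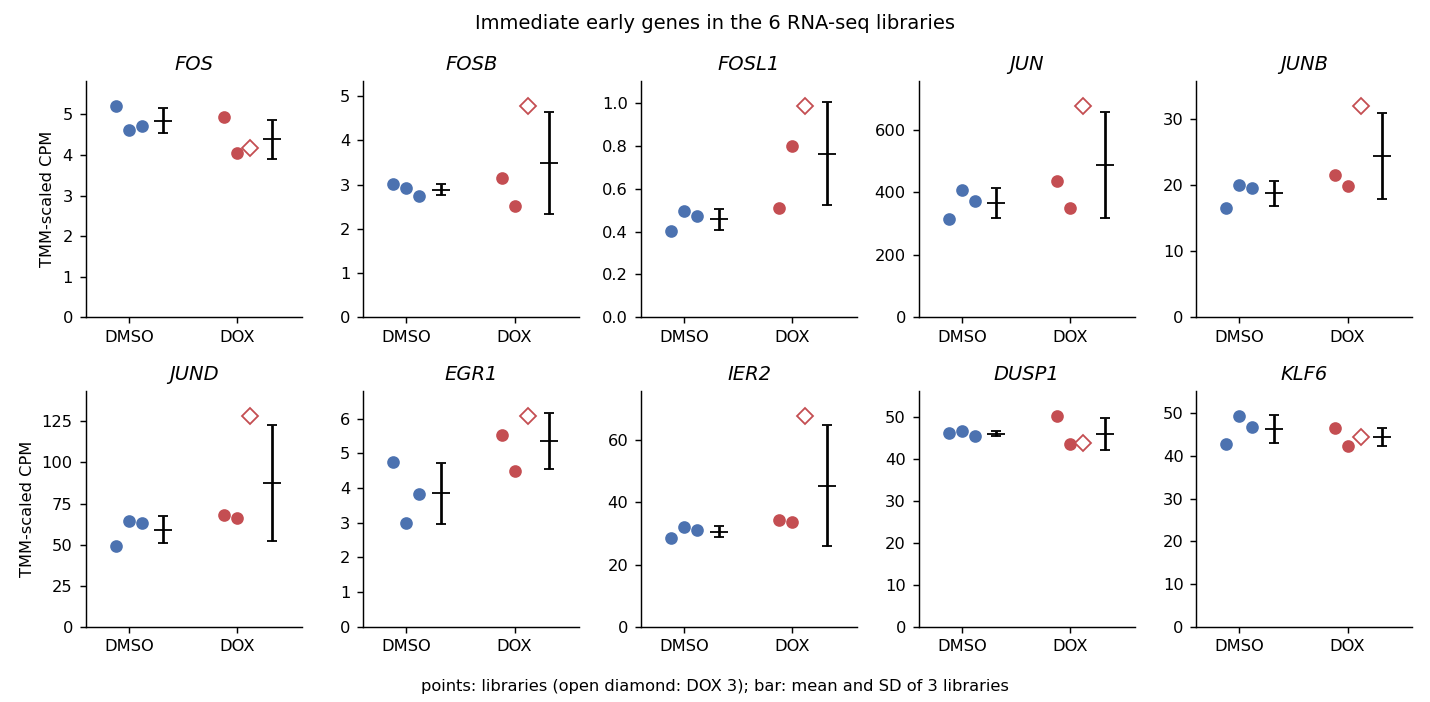
TMM-scaled CPM of each gene, 1 panel per gene with its own axis from 0, in the 3 DMSO (blue) and 3 DOX (red) libraries, with DOX 3 as an open diamond and bars for the mean and SD of 3 libraries. DOX 3 stands far above the other 5 libraries for JUN (675 CPM), JUND (128 CPM), JUNB (31.9 CPM) and IER2 (67.7 CPM), and among them for FOS, DUSP1 and KLF6.

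The FOS family supplies AP-1 subunits that cannot pair with each other and need a JUN partner. FOS, the founding member, was at 5.2, 4.63 and 4.72 CPM in DMSO and at 4.94, 4.04 and 4.18 CPM in DOX. The groups overlapped, with DOX 2 and DOX 3 below all DMSO libraries, and the log2 fold change was -0.14 (SE 0.13, 95% confidence interval -0.46 to 0.17). Without DOX 3 it was -0.11 (SE 0.12), so FOS lay nearly the same with either set of libraries.

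FOSB, which is transcribed with FOS in many tissues, was at 3.003, 2.91 and 2.75 CPM in DMSO and at 3.15, 2.53 and 4.77 CPM in DOX. DOX 2 lay below the DMSO range, DOX 1 just above it and DOX 3 well above it. Its log2 fold change was 0.24 (SE 0.23) over 6 libraries and turned to -0.03 (SE 0.14) without DOX 3. 

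FOSL1, which encodes FRA1 and is itself a target of AP-1, was the lowest of the 10 at 0.403, 0.495 and 0.472 CPM in DMSO and 0.511, 0.799 and 0.986 CPM in DOX. These levels rest on 22 to 37 reads per library. All DOX libraries lay above all DMSO libraries, DOX 1 by a small margin, and the log2 fold change was 0.70 (SE 0.28, 95% confidence interval 0.05 to 1.35). It was 0.52 (SE 0.28) without DOX 3, and neither value passed the test (adjusted p = 0.326 and 0.255, edgeR). With limma voom and a weight for each library, FOSL1 was the 1 gene of the 10 that passed (log2 fold change 0.69, adjusted p = 0.0155, limma), in a fit that called 3407 genes higher and 3554 lower.

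Within the FOS family, FOS made up 57.6% to 60.4% of the summed CPM in DMSO, 57.4% in DOX 1, 54.8% in DOX 2 and 42.1% in DOX 3. FOSB took the largest share in DOX 3, at 48% against 34.3% to 36.6% in the other 5 libraries.

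The JUN family can form AP-1 with FOS proteins or among themselves. JUN, the most abundant of the 10, was at 316, 408.5 and 373 CPM in DMSO and at 435.5, 350.5 and 675 CPM in DOX. DOX 2 fell inside the DMSO range, DOX 1 lay just above it and DOX 3 was 1.72 times the mean of DOX 1 and 2. For JUN the log2 fold change was 0.41 (SE 0.24, 95% confidence interval -0.14 to 0.96), and 0.10 (SE 0.093) without DOX 3.

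JUNB, which can oppose JUN at some promoters, was at 16.6, 19.9 and 19.6 CPM in DMSO and at 21.5, 19.9 and 31.9 CPM in DOX. DOX 2 lay within the DMSO range, and DOX 3 was 1.54 times the mean of DOX 1 and 2. For JUNB the log2 fold change was 0.38 (SE 0.19) and 0.15 (SE 0.092) without DOX 3. JUNB overlaps HOOK2 on the opposite strand over 259 bases, and whether the counting used strand is not stated, so reads there cannot be assigned to 1 gene with certainty.

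JUND, the family member that is least dependent on growth signals, was at 49.5, 64.2 and 63.2 CPM in DMSO and at 67.8, 66.1 and 128 CPM in DOX. All DOX libraries lay above all DMSO libraries, DOX 1 and 2 narrowly. JUND had a log2 fold change of 0.57 (SE 0.27, 95% confidence interval -0.06 to 1.19; adjusted p = 0.326, edgeR) and 0.18 (SE 0.089; adjusted p = 0.198, edgeR) without DOX 3. 

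The makeup of the JUN family varied little: JUN held 80.3% to 83% of the summed CPM of the 3 genes in every library, DOX 3 included. The sum itself was 382, 493 and 456 CPM in DMSO and 525, 437 and 835 CPM in DOX. In DOX 3 the 3 genes stood higher together, and their proportions stayed within the range of the other libraries or within 1 percentage point of it.

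**Figure D3:**
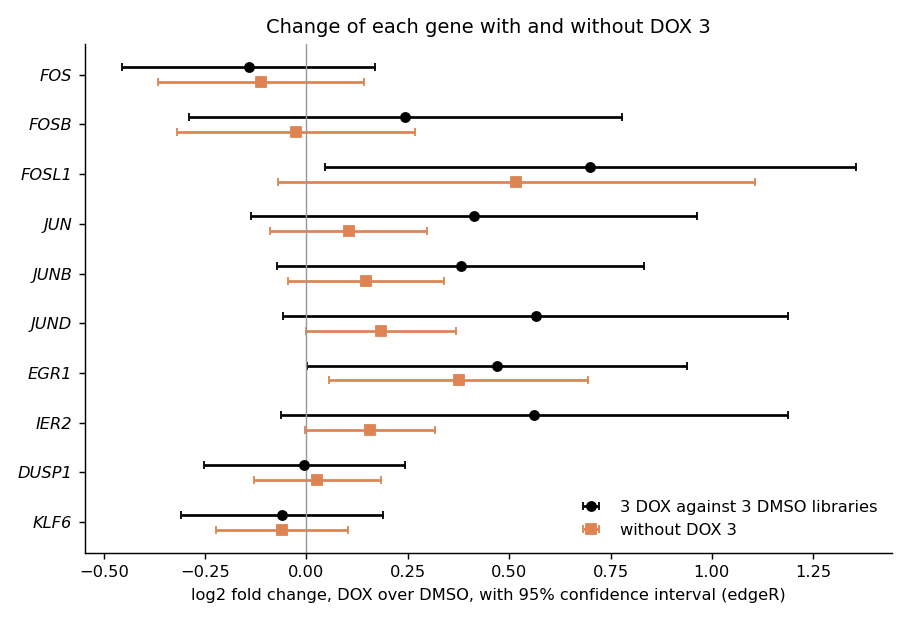
log2 fold change of DOX over DMSO for each gene with its 95% confidence interval from edgeR, over 3 against 3 libraries (black circles) and without DOX 3 (orange squares). Without DOX 3 the values of JUN, JUNB, JUND and IER2 lie between 0.10 and 0.18, and the intervals of 8 of the 10 genes include 0 in both fits, those of FOSL1 (over 3 against 3 libraries) and EGR1 (in both) excluding it.

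EGR1, a zinc finger factor that serum switches on within minutes and whose promoter carries the 5 CArG boxes above, was at 4.74, 2.99 and 3.82 CPM in DMSO and at 5.51, 4.49 and 6.07 CPM in DOX. DOX 2 lay below DMSO 1, so the groups overlapped, and the DMSO libraries spread over 1.59-fold, the widest of the 10 genes. The log2 fold change was 0.47 (SE 0.20, 95% confidence interval 0.002 to 0.94; adjusted p = 0.326, edgeR). It was 0.38 without DOX 3 (SE 0.15, 95% confidence interval 0.06 to 0.69; adjusted p = 0.129, edgeR), and EGR1 and FOSL1 were the only 2 genes of the 10 that stayed above 0.3 without that library.

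IER2, a small nuclear protein named for its immediate early response, was at 28.6, 31.95 and 31.2 CPM in DMSO and at 34.5, 33.7 and 67.7 CPM in DOX. All DOX libraries lay above all DMSO libraries, with DOX 3 at 1.99 times the mean of DOX 1 and 2, the highest such ratio of the 10. IER2 had a log2 fold change of 0.56 (SE 0.27) and 0.16 (SE 0.077) without DOX 3. IER2 overlaps 2 unnamed antisense genes over 1608 bases, with the same limit on strand as for JUNB.

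KLF6, a zinc finger factor that binds GC-rich promoter boxes, was at 42.9, 49.3 and 46.8 CPM in DMSO and at 46.4, 42.4 and 44.4 CPM in DOX. The groups overlapped, with DOX 2 just below all DMSO libraries, and DOX 3 lay between DOX 1 and 2. The log2 fold change was -0.06 (SE 0.11, 95% confidence interval -0.31 to 0.19), the same without DOX 3 to 2 decimals, and 0.08 with scaling to library totals.

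DUSP1, the phosphatase that removes the activating phosphates of ERK, JNK and p38, was at 46.2, 46.7 and 45.4 CPM in DMSO and at 50.3, 43.7 and 43.8 CPM in DOX. Its DMSO libraries differed by 1.03-fold, the tightest of the 10 genes, and DOX libraries lay on both sides of them. The log2 fold change was -0.006 (SE 0.11, 95% confidence interval -0.25 to 0.24) over 6 libraries, 0.03 (SE 0.075) without DOX 3 and 0.13 with scaling to library totals.

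In exact two-sided permutation tests of the CPM of 3 against 3 libraries, for which 0.1 is the smallest p possible, p was 0.1 for FOSL1, JUND and IER2. It was 0.2 for JUNB and EGR1 and 0.3 to 1 for the other 5 genes in the same exact test.

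DOX 3 divided the 10 genes into those it set apart and those it did not. Against the mean of DOX 1 and 2, its CPM was 1.99-fold for IER2, 1.92-fold for JUND, 1.72-fold for JUN, 1.68-fold for FOSB, 1.54-fold for JUNB, 1.51-fold for FOSL1 and 1.21-fold for EGR1. It was 0.931-fold for FOS, 0.932-fold for DUSP1 and 0.999-fold for KLF6. In reads, DOX 3 held 1717 for IER2, where DOX 1 and 2 held 1619 and 1562 at 47862104 and 45887231 gene reads in place of 21687906, and 106 for FOS, where they held 232 and 187.

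The ratio of DOX 3 to DOX 1 and 2 moved with GC content over all genes. Across 14262 tested protein-coding genes, the log2 ratio correlated with the GC content of the transcript (Pearson's r = 0.77, Spearman's rho = 0.80), as a description across genes that share these libraries. Its median went from -0.79 in the quintile of genes lowest in GC to 0.49 in the highest quintile. JUNB, JUND and IER2 belong to the highest quintile, with log2 ratios of 0.62, 0.94 and 0.99. FOS, FOSB, FOSL1, JUN, EGR1 and DUSP1 belong to the next, with a median of 0.18, and ranged from -0.10 for FOS and DUSP1 to 0.78 for JUN. KLF6 belongs to the middle quintile, with a median of -0.16, and was at -0.002. 

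Without DOX 3 the relation was weaker and still present, since the log2 fold change of DOX 1 and 2 over DMSO correlated with GC content at r = 0.63 (rho = 0.69, 14237 genes). The medians of the quintiles ran from -0.19 to 0.18. JUNB (0.15), JUND (0.18) and IER2 (0.16) were then close to the median of their quintile, 0.18, and JUN (0.104) to that of its own, 0.095. EGR1 (0.38) and FOSL1 (0.52) were above that median, and FOS (-0.11), FOSB (-0.03) and DUSP1 (0.03) below it. The part of GC content in the values of the 10 genes was not tested.

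**Figure D4:**
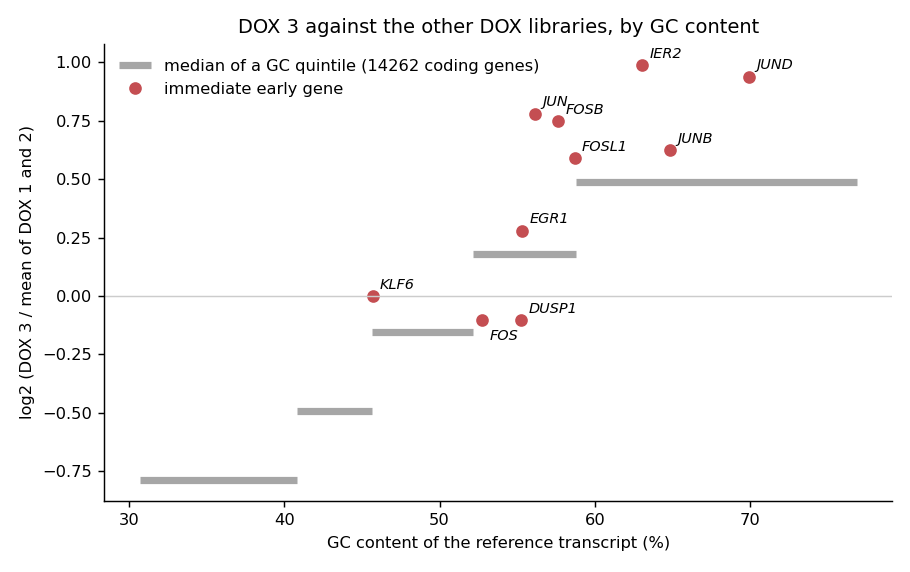
log2 ratio of DOX 3 to the mean of DOX 1 and 2 for each gene (red points) against the GC content of its reference transcript in percent, with grey bars for the median ratio in each quintile of the 14262 tested protein-coding genes. The bars climb from -0.79 to 0.49, and FOS and DUSP1 lie below the bar of their quintile while the other 8 genes lie above theirs.

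Ribo-seq asks whether ribosomes sat on these mRNAs. The 10 genes held 34 of the 3638279 gene reads in the 6 Ribo-seq libraries (0.000935%), against 173283 of 279077426 in RNA-seq (0.0621%). Their share of gene reads was thus also lower in Ribo-seq, and the reason was not tested. KLF6 had 21 of the 34, with 0, 9 and 1 in DMSO 1 to 3 and 1, 10 and 0 in DOX 1 to 3, so that 19 of its reads came from DMSO 2 and DOX 2. JUN, with 110669 RNA-seq reads, had 3 Ribo-seq reads. FOSB, JUNB, JUND and EGR1 had 2 each, FOS and IER2 1 each, and FOSL1 and DUSP1 had 0. Libraries of this assay held 210186 to 1002424 gene reads and only 233 to 497 genes with at least 10 reads, so a count of 0 allows up to 3 reads, which is 2.99 to 14.3 CPM in a library. Such limits cover counting error only.

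Translation efficiency relates the Ribo-seq level of a gene to its RNA-seq level, and it could be tested in KLF6 alone of the 10, since the other 9 had at most 3 Ribo-seq reads. Its log2 change in DOX was 0.56 with a 95% confidence interval of -2.81 to 3.92 (adjusted p = 0.916, edgeR). With so few reads a change of several fold in either direction was not detectable. Without replicate 2 of DOX the value was -2.37. Of the 1334 genes tested, 0% were called higher (100 at an unadjusted p under 0.05, and 31 with DESeq2) and 0.15% lower by edgeR (178 at an unadjusted p under 0.05, and 42 with DESeq2).

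The pathway around the 10 genes was described with 7 lists of 115 genes, of which 112 were tested. Like the 10, the lists were chosen with earlier results of these data known. Over 6 libraries none of the 112 passed the test (lowest adjusted p 0.326, edgeR). Without DOX 3, 15 passed, 7 higher and 8 lower, beside the 3.59% and 4.06% over all genes. Rises and falls in the lists below are calls of that fit over 5 libraries. With DESeq2 on those libraries all 15 passed, and with scaling to library totals 10 did: NFIL3, CCNL1, CREM, MAP2K4 and CNOT6L, which all fell, did not (adjusted p = 0.0681, 0.0918, 0.107, 0.0615 and 0.064, edgeR). The 7 that rose had a GC content of 50.5% to 66.3% and the 8 that fell one of 36% to 46.2%, without overlap, and the part of GC content in these calls was not tested.

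Among 22 tested other immediate early transcription factors, 0 rose and 1 fell without DOX 3, with a median log2 fold change of -0.03. NFIL3, a bZIP repressor, fell by 0.32 on the log2 scale (SE 0.085, adjusted p = 0.0311, edgeR), from 18.1 CPM in DMSO to 15.1, 13.95 and 9.62 CPM in DOX 1 to 3. ID1, an inhibitor of helix-loop-helix factors, had the largest value above 0 among genes whose groups did not overlap (log2 fold change 0.34 over 6 libraries and 0.22 without DOX 3, adjusted p = 0.0914, edgeR; 0.0398 with library totals).

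Among 20 other immediate early genes, 2 rose and 1 fell. IER5L, of the IER family like IER2, was at 6.32, 7.2 and 6.47 CPM in DMSO and at 9.13, 8.34 and 13.5 CPM in DOX, and rose by 0.39 on the log2 scale without DOX 3 (SE 0.10, adjusted p = 0.0297, edgeR). CYR61, a secreted matrix protein also called CCN1, rose by 0.33 (SE 0.089, adjusted p = 0.0327, edgeR). CCNL1, a cyclin tied to RNA splicing, fell by 0.28 (SE 0.086, adjusted p = 0.048, edgeR) and stood at 49.1 CPM in DOX 3 against 119 to 129.6 CPM in DMSO. CYR61 was named after its value was seen.

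ERK phosphatases and other feedback genes, 16 in all, had 1 call. DUSP8, a phosphatase of JNK and p38, rose by 0.45 (SE 0.11, adjusted p = 0.0221, edgeR), from 7.14, 9.46 and 8.56 CPM in DMSO to 10.9 and 12.01 CPM in DOX 1 and 2 and 22.8 CPM in DOX 3. ETV1, an ETS factor, lay lower in all DOX libraries (log2 fold change -0.63 over 6 libraries and -0.48 without DOX 3, adjusted p = 0.0731, edgeR).

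Of 13 genes listed as activators that bind immediate early promoters, coactivators such as CREBBP included, 1 rose and 2 fell. CREBBP, a histone acetyltransferase recruited by CREB, rose by 0.25 (adjusted p = 0.0379, edgeR), while MEF2A, a MADS-box factor, fell by 0.29 (adjusted p = 0.022, edgeR) and CREM, a CREB relative, by 0.30 (adjusted p = 0.0472, edgeR). MKL1, a coactivator of serum response factor, was 0.43 over 6 libraries and 0.24 without DOX 3 on the log2 scale (adjusted p = 0.0811, edgeR; 0.0412 with library totals and 0.0497 with DESeq2). CREBBP and CREM were named after their values were seen.

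Of 22 MAP kinase cascade genes, 2 rose and 2 fell. MAP2K7, a kinase of JNK, was at 32.8, 38.6 and 37.5 CPM in DMSO and at 47.3, 50.8 and 72.5 CPM in DOX and rose by 0.43 (SE 0.080, adjusted p = 0.00731, edgeR). MAP2K4, the other kinase of JNK, fell by 0.29 (SE 0.075, adjusted p = 0.0297, edgeR), from 59.1 to 68.1 CPM in DMSO to 54.3, 49.8 and 26.8 CPM in DOX. RPS6KA4, a kinase of CREB and histone H3, rose by 0.26 (adjusted p = 0.0368, edgeR) and NRAS, a small GTPase upstream of RAF, fell by 0.30 (adjusted p = 0.0244, edgeR). MAP2K4 and RPS6KA4 were named after their values were seen.

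Of 8 tested bZIP partners of AP-1, 0 rose and 1 fell. ATF2, a partner of JUN at CRE-like sites, fell by 0.37 (SE 0.075, adjusted p = 0.0112, edgeR), from 64.2 to 71.05 CPM in DMSO to 56.3, 49.6 and 24.8 CPM in DOX. MAFG, a small MAF protein, had a log2 fold change of 0.27 over 6 libraries and 0.17 without DOX 3 (adjusted p = 0.15, edgeR).

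Of 11 genes tied to the decay of AU-rich mRNAs, listed as decay factors, 1 rose and 1 fell. KHSRP, which recruits the exosome to such mRNAs, rose by 0.39 (SE 0.075, adjusted p = 0.00952, edgeR), from 317, 382 and 356.5 CPM in DMSO to 434, 485 and 673 CPM in DOX. CNOT6L, a deadenylase, fell by 0.30 (SE 0.080, adjusted p = 0.0318, edgeR). The medians without DOX 3 were between -0.06 and 0.03 on the log2 scale in all 7 lists, beside -0.01 for all tested genes and 0.13 for the 10 immediate early genes.

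**Figure D5:**
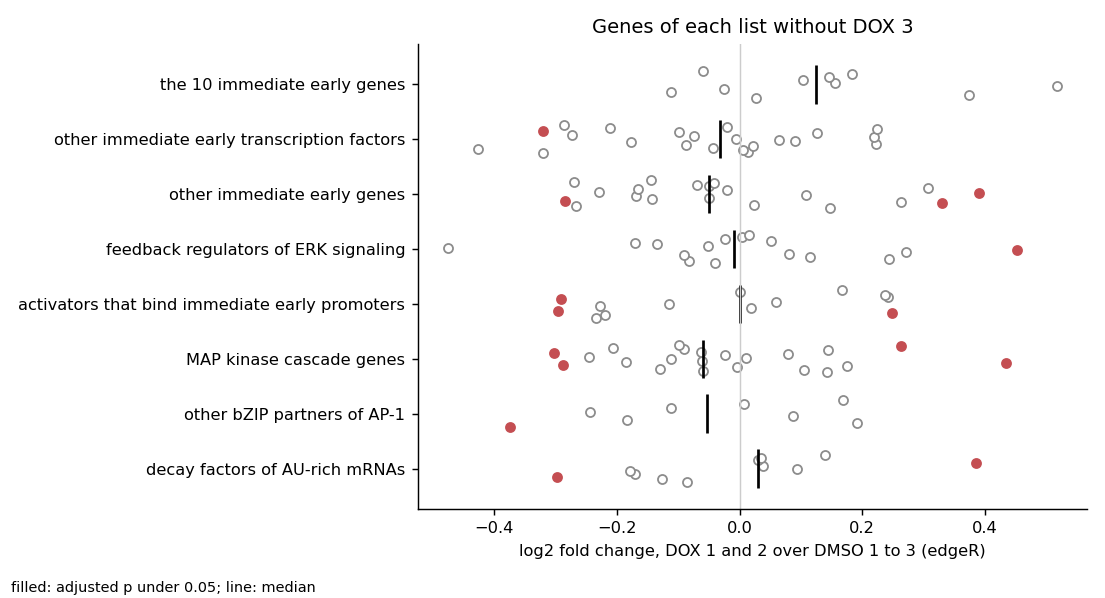
log2 fold change of DOX 1 and 2 over the 3 DMSO libraries for the tested genes of each list, 1 circle per gene, filled red where the adjusted p of edgeR was under 0.05, with a line at the median. The filled circles, 15 in all, lie on both sides of 0, and none of the 10 immediate early genes in the top line is filled.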

How the data were processed

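Cultures of 293T4A cells, 3 with DMSO and 3 with DOX, gave 1 RNA-seq and 1 Ribo-seq library each, grouped by the labels. The authors removed linker and ribosomal RNA reads from the Ribo-seq data, used STAR for alignment and kept reads that aligned once, in exons. What they deposited are whole-number counts for each gene, not normalized. The methods name GRCh38 for alignment and GRCh37 for annotation, the labels Ensembl release 75, and the strand setting of counting is not stated. A second deposited table pairs gene IDs with symbols and was used for these alone. Its other columns hold the authors' own RiboDiff comparison of translation efficiency (ratios, p-values and dispersions) and were not used. Counts of reads with no gene were left out of library sizes; these were 69.2% to 94.1% of RNA-seq reads. All columns were mapped to samples.

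Counts were scaled with TMM factors over all genes of an assay and tested in R 4.3.3 with edgeR 4.0.16 (quasi-likelihood F-test, Benjamini-Hochberg threshold 0.05), where 10 reads or more were present in 3 libraries or more. Translation efficiency was the interaction of assay and treatment, for genes whose 6-library sum reached 10 reads in both assays. SE is the log2 fold change divided by the root of F. Fits were checked on simulated counts with larger RNA-seq changes than those of the 10 genes. These held no library with an outlying profile and no shift by GC content, so the check does not cover DOX 3. Single values used exact permutation tests (scipy 1.17.1). DESeq2 1.42.0, limma voom 3.58.1 with library weights, other scalings and filters, and leaving out each library were the alternatives. For translation efficiency, each replicate of a group was left out in both assays together. Lengths, GC content and coordinates came from GENCODE release 44 on GRCh38, in which 58207 of 58735 gene IDs were found, and promoter starts from RefSeq. A CPM pseudocount of 0.05 was used only for the GC comparison. The window of 500 bases was chosen after the shorter one had been searched. Protein sequences were not analysed here.

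The 10 genes and the lists were chosen with earlier results of these data known. Besides the 10 and EIF4EBP1, most of the list genes named here were chosen by a rule. In each list it took the gene with the largest rise and the gene with the largest fall over 6 libraries. Only tested genes whose DOX libraries all lay on 1 side of the DMSO libraries were eligible. CYR61, CREM, CREBBP, MAP2K4 and RPS6KA4 were instead named after their values were seen, since they passed the test without the outlying DOX library. Whether replicate numbers paired the cultures is not settled (correlations of deviations 0.392, -0.361 and 0.0233). These correlations cannot decide it, because the outlying DOX library weighs on the mean of its group.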

Additional observations from a re-analysis of the deposited data

How the results depend on the processing

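The number of the 10 genes past the threshold was 0 in all alternatives but limma voom with library weights, where it was 1 (FOSL1). Over all genes, counts higher and lower moved from 0 and 0 to 1 and 2 with the DESeq2 Wald test and 3407 and 3554 with limma voom, and ranged from 0 to 735 and from 0 to 831 when 1 library was left out, with calls only without DOX 3. On those 5 libraries, in 2 settings chosen after seeing the data, the DESeq2 Wald test gave 996 and 1054 and scaling to library totals 1442 and 339. For translation efficiency, counts moved from 0 and 2 to 3 and 7 with no filter and 31 and 42 with the DESeq2 Wald test. The lower count was 1 with library totals and 0 with the replicate block. Leaving out 1 replicate of a group, in both assays, gave 0 to 1 higher and 0 to 0 lower.

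Several small fold changes of the 10 genes changed sign. FOSB was -0.12 with limma voom, -0.026 to 0.44 when 1 library was left out (lowest without DOX 3) and -0.021 with DESeq2 without DOX 3, and JUN was -0.026 with limma voom. DUSP1 was 0.013 with DESeq2 size factors, 0.13 with library totals, 0.034 with the DESeq2 Wald test, 0.027 with protein-coding genes alone, -0.077 to 0.029 when 1 library was left out, and 0.032 and 0.0896 in the 2 added settings. KLF6 was 0.082 with library totals, and 0.00199 with library totals without DOX 3. The translation efficiency of KLF6 was -2.37 to 3.2 when 1 replicate was left out, the lowest without DOX 2. Of 159 recomputed fold changes of the 10 genes, 143 kept direction and side of the threshold. The 320 recomputed fold changes of the 20 other genes, named in the lists or as the check of the labels, kept their direction. Of these, 67 passed the threshold where the fit over 6 libraries did not. Those genes, EIF4EBP1 apart, were chosen by their changes in these same data, so both counts partly follow from that choice. The replicate block, for which a pairing of the cultures is not settled, changed no other call. Levels per kilobase moved by more than 1 SD in 7 of 20 cases. Low read counts limit FOSL1 (22 to 37 reads per library) and nearly all Ribo-seq values of the 10 genes.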
